A study of Glycine max with 2 samples.

Results

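*SCB1* (Glyma.07G176700), the seed coat BURP gene of soybean, is 1 of the 56044 genes listed in the RNA matrix of cotyledon-stage seeds, and it was followed by its gene identifier through all 8636 nuclei. The nuclei came from whole seeds of *Glycine max* cultivar Williams 82, which were hand chopped without separating the seed coat from the embryo or the endosperm. RNA and open chromatin were read from the same nuclei in 1 single-nucleus RNA library and 1 single-nucleus ATAC library, for which 10000 nuclei were loaded. No other genotype, treatment or stage enters, and neither library was repeated. The intervals below are therefore exact 95% intervals for counting error alone (Poisson for levels, conditional binomial for ratios, Clopper-Pearson for shares), they do not cover differences between nuclei or seeds, and no p-values are given.

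BURP proteins are a plant-specific family named after a shared carboxy-terminal domain, and many members are secreted and associate with the cell wall. The soybean seed coat develops from the integuments of the ovule and consists of an epidermis, an outer integument with hourglass cells and layers of thin- and thick-walled parenchyma, and an inner integument that ends in the endothelium next to the endosperm. SCB1 is known as a wall-associated protein of parenchyma cells in the developing seed coat. The companions examined beside it have different roles. *SCS1* (Glyma.06G022600) encodes a subtilisin-like serine protease, *TT8* (Glyma.02G147800 and Glyma.10G026000) encodes a basic helix-loop-helix regulator of proanthocyanidin synthesis, and *BAN* (Glyma.08G062000) encodes anthocyanidin reductase, an enzyme of that pathway.

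*SCB1* RNA was the second most abundant RNA of the library. Its 87202 UMIs (unique molecular identifiers, the tags by which captured RNA molecules are counted) made up 0.219% of all 39881831 UMIs, a level of 2187 CPM (UMIs per 1000000 UMIs; interval 2172 to 2201). Only Glyma.10G214500, annotated by the study as an auxin down-regulated protein, had more, with 178448 UMIs, and the β-glucosidase gene *BGLU44* (Glyma.09G178100) followed with 78011. The median nucleus had 2946 UMIs of all genes, and the range was 199 to 111060.

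The RNA was spread very unevenly over nuclei. At least 1 *SCB1* UMI was present in 4877 nuclei (56.5%, interval 55.4 to 57.5%), and in these the median was 6 UMIs, with quartiles of 2 and 13. A further 3759 nuclei had none. The 1639 nuclei with 10 UMIs or more were 19% of all nuclei and held 86.0% of the *SCB1* UMIs, and the 164 nuclei with 100 or more (1.90%) held 41.7%. The highest count was 999 in a nucleus of 40909 UMIs, 2.44% of its RNA. Relative to a nucleus's own depth, *SCB1* reached 5.22% of all UMIs, and 331 nuclei carried it at 1% or more.

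**Figure D1:**
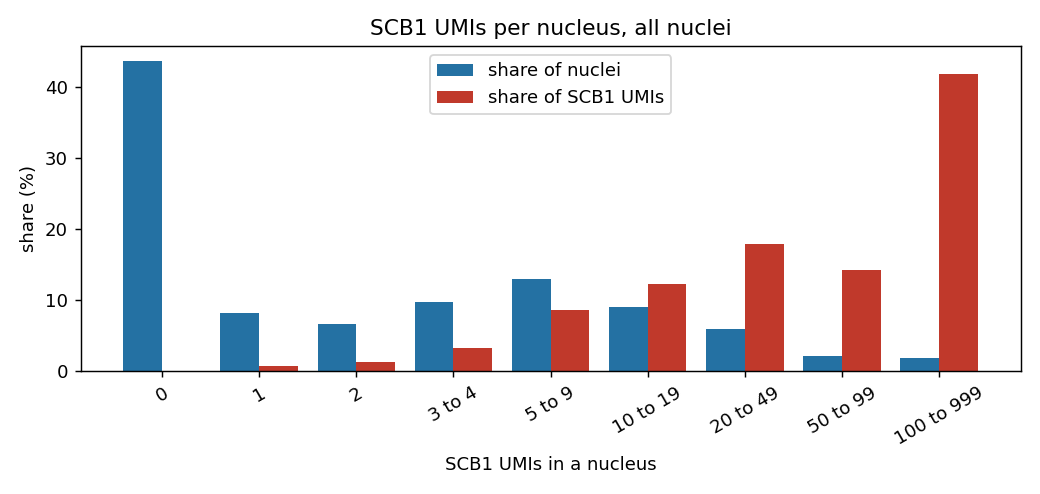
SCB1 UMIs per nucleus in all 8636 nuclei, in bins of the count (x axis); blue bars give the share of nuclei and red bars the share of all SCB1 UMIs, both in percent. The bin without SCB1 held 43.5% of the nuclei, and the bin from 100 to 999 UMIs held 1.90% of the nuclei and 41.7% of the UMIs.

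Deeper nuclei did not have *SCB1* RNA more often than shallow ones. Among the shallowest 25% of nuclei (199 to 1894 UMIs), 62.7% had *SCB1* RNA (interval 60.6 to 64.7%), whereas 49% (46.9 to 51.2%) of the deepest 25% (5140 to 111060 UMIs) did. The endosperm nuclei described below were deeper, with a median of 5779 UMIs, than the outer integument nuclei, with 2964. When each of the 6229 nuclei with 2000 UMIs or more was reduced at random to 2000 UMIs, 50% (48.7 to 51.2%) retained *SCB1* RNA, and 712 nuclei (11.4%) still held more than 10 *SCB1* UMIs of their 2000. With nuclei reduced to 1000 or 500 UMIs instead, the shares were 45.7% and 37.0%, so fewer UMIs per nucleus gave lower detection.

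To place the RNA in the seed, the nuclei were clustered again with the study's settings, and each of the 23 clusters was matched by its average expression to the study's numbered clusters (sn0 to sn20; correlation across genes of 0.978 or higher). Regions are those that the study gave to these clusters. On a list of 55 outer integument genes, 48 were enriched in sn0, 45 in sn5a and 30 in sn19, but no more than 10 in any other cluster assigned to that region, and in sn6a and sn6b all 11 genes of a vascular list were enriched. Both lists derive from the study's tables of these same nuclei and are not independent evidence. More than 50% of the nuclei of sn4 (62.1%), sn7 (52.2%), sn8 (75.8%) and sn17 (62.1%) had fewer than 3000 ATAC fragments.

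*SCB1* was highest in sn17, sn0 and sn5a. The level was 10432 CPM in sn17 (interval 10249 to 10619), a cluster of 203 nuclei that the study placed in several seed coat subregions. In the outer integument clusters sn0 (761 nuclei) and sn5a (375 nuclei) it was 7245 (7154 to 7336) and 7195 (7066 to 7325), and these values did not differ beyond counting error. *SCB1* ranked first among all genes in both. Together the 3 clusters held 55.8% of the *SCB1* UMIs and 15.6% of all UMIs, and 94.3% of their nuclei had *SCB1* RNA (92.9 to 95.5%).

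**Figure D2:**
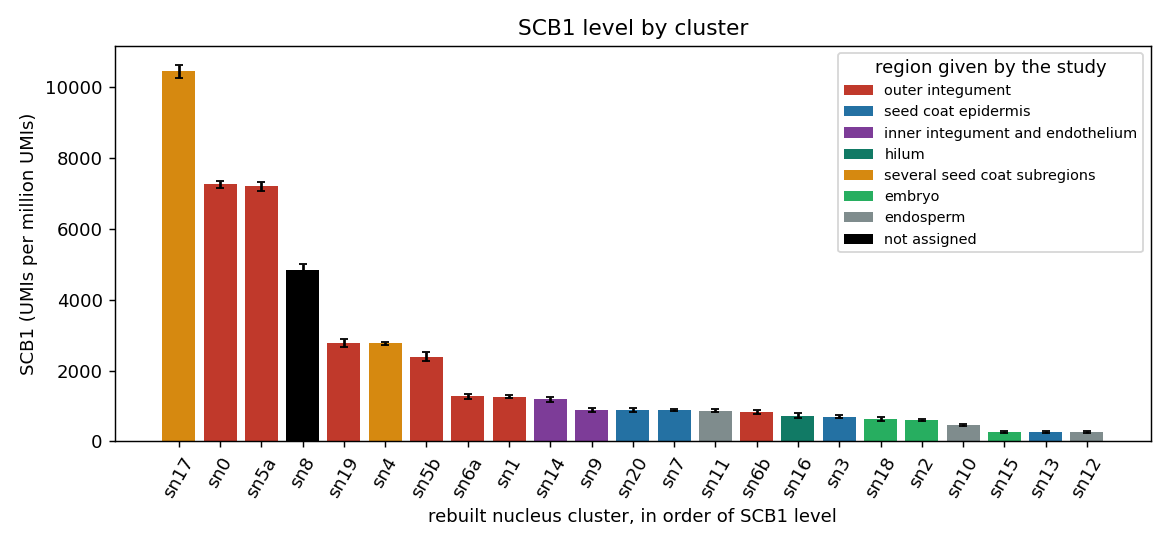
SCB1 level (y axis, UMIs per 1000000 UMIs) in the 23 rebuilt clusters (x axis, highest first); bars are coloured by region, and error bars are exact 95% Poisson intervals of the count. The levels run from 10432 in sn17 to 266 in sn12.

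The unassigned cluster sn8 followed with 4822 CPM (4660 to 4989), although its nuclei were the shallowest, with a median of 1152 UMIs. A second tier held sn19 at 2768 (2655 to 2884), sn4 at 2763 (2711 to 2816) and sn5b at 2394 (2269 to 2525), of which sn19 and sn4 did not differ beyond counting error. The other outer integument clusters were lower, with 1274 (1209 to 1342) in sn6a, 1262 (1221 to 1303) in sn1 and 834 (776 to 894) in sn6b. The outer integument was thus not uniform for *SCB1*, since sn6b and sn0 of the same region stood 8.69-fold apart. The inner integument clusters sn14 and sn9 had 1184 (1113 to 1258) and 898 (844 to 954), and the hilum cluster sn16 had 722 (655 to 795).

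Epidermal clusters were low. The level was 894 CPM (838 to 953) in sn20, 881 (853 to 910) in sn7, 694 (654 to 736) in sn3 and 274 (249.7 to 299.9) in sn13. Embryo clusters ranged from 276 (249 to 306) in sn15 to 637 (577 to 703) in sn18, and endosperm clusters from 266 (243 to 290) in sn12 to 873 (839 to 909) in sn11. Without the 6% of nuclei with the highest doublet scores, sn11 fell to 308 CPM and sn10 from 461 to 246, while sn12 was at 215. Of the 22 pairs of neighbouring clusters in this order, 14 had overlapping intervals, and the highest and the lowest cluster differed 39.3-fold.

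Summed over regions, the seed coat clusters had 2805 CPM (2785 to 2824) and the embryo and endosperm clusters 541 (528 to 555), a ratio of 5.18 (5.05 to 5.32). The share of nuclei with *SCB1* RNA was 62.4% (61.1 to 63.6%) in the seed coat, at a median depth of 2805 UMIs, and 32.5% (30.5 to 34.5%) in embryo and endosperm, at 4257. At 2000 UMIs per nucleus the shares were 59.4% and 25.2%. The shares in embryo and endosperm are the values that remained after the study's subtraction of free RNA. Pooled levels weight deep nuclei. With nuclei of 2000 UMIs or more reduced to 2000, sn17 stood at 10733 CPM, sn5a at 5667, sn0 at 5395 and sn8 at 4876. The value of sn8 rests on 85 of its 475 nuclei, since the others were shallower.

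Within a cluster the nuclei fell between uniform and sporadic carriers. In sn0 and sn5a the median nucleus had 36.6 and 45.5 *SCB1* UMIs per 10000, with lower quartiles of 18.3 and 25.6. Cluster sn17 was more divided, with a median of 82.4, quartiles of 16.1 and 149, and the library's highest count. In sn10 and sn13, by contrast, the upper quartile was 0, and the top 10% of nuclei carried 92.0% and 95.9% of the *SCB1* UMIs. The corresponding share was 60.1% in sn0 and 39.2% in sn8. In sn10 and sn13 the level thus came from a minority of nuclei. The upper quartile was also 0 in sn12 and sn15, where the top 10% carried 84.3% and 86.9%. In the epidermal cluster sn20 the top 10% carried 92.4%, and its highest count was 272 of 933 *SCB1* UMIs.

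In embryo and endosperm clusters, the nuclei that carried *SCB1* also carried more RNA of outer integument genes. Nuclei with at least 3 *SCB1* UMIs of 2000 are called *SCB1*-high here, and nuclei with 0 *SCB1*-none. In the endosperm clusters, the 90 *SCB1*-high nuclei had 8011 CPM of the 55 outer integument genes and the 782 *SCB1*-none nuclei 1508, and 52 of the 55 genes were higher in the former. Of these genes, 2 were at 0 in the *SCB1*-high and 1 in the *SCB1*-none nuclei. The 8 endosperm genes differed little, at 4172 and 4003 CPM. Other lists were also higher in the *SCB1*-high endosperm nuclei, with 311 against 136 CPM of the embryo genes (8 of 8 higher), 222 against 124 of the epidermal genes (10 of 15) and 428 against 288 of the vascular genes (8 of 11). The share of all genes that were higher was not counted, here or in the embryo and epidermal clusters below. How far the list counts exceed it is therefore not known. Among the *SCB1*-high endosperm nuclei, 43.3% belonged to the 6% of all nuclei with the highest doublet scores, against 7.67% of the *SCB1*-none nuclei, and their median depth was 7531 against 5934 UMIs. Without the nuclei with high doublet scores, the endosperm level was 257 CPM instead of 563, the embryo level 478 instead of 500, and the ratio of seed coat to embryo and endosperm 8.37.

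In the embryo clusters, 109 *SCB1*-high nuclei had 4528 CPM of the outer integument genes and 560 *SCB1*-none nuclei 1806, with 40 of 55 genes higher, while the shares with high doublet scores were 9.17% and 6.96%. The 8 embryo genes summed to 2413 and 2582 CPM. In the epidermal clusters, the 217 *SCB1*-high nuclei had 5260 CPM of outer integument genes against 1549 in 728 *SCB1*-none nuclei, and 2187 against 4253 CPM of the 15 epidermal genes, each of which was lower. Their median fragment number was 6695 against 10533, and 10.6% against 3.30% had high doublet scores. The part of doublets and of free RNA in these differences was not tested.

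**Figure D3:**
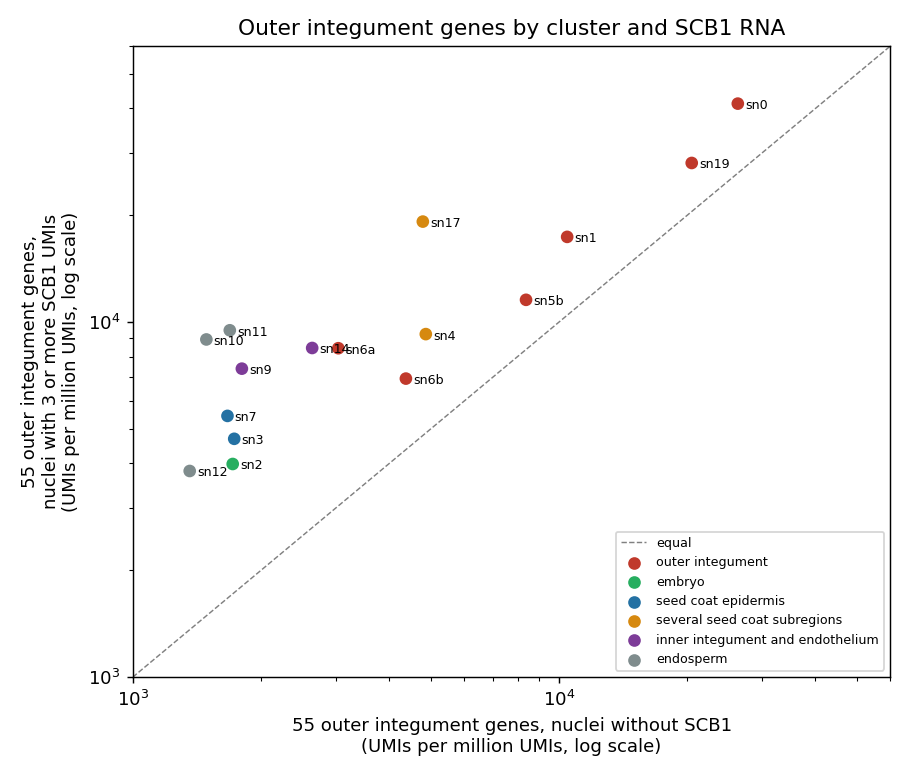
Summed level of the 55 outer integument genes (UMIs per 1000000 UMIs, log scales) in nuclei without SCB1 (x axis) and in nuclei with 3 or more SCB1 UMIs of 2000 (y axis), for each cluster with at least 20 nuclei of both kinds; points are coloured by region and the dashed line marks equal levels. Every cluster shown lies above the line, from sn19 (28085 against 20500) to sn10 (8940 against 1489).

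The deposited matrix holds *SCB1* entries that are written with the value 0. It lists an *SCB1* entry for 8431 of the 8636 nuclei (97.6%), more than for any other gene but 1. Of these entries, 3554 equal 0 (42.2%, interval 41.1 to 43.2%), and 205 nuclei have no entry. Among the 11319 genes with at least 1000 entries, the median share of written zeros was 15.0%, and 289 genes (2.55%) had a higher share than *SCB1*. Written zeros made up 72.3% of the entries of *SCS1*, 57.0% of those of *BAN*, and 15.9% and 17.2% of those of the *TT8* genes. The matrix before the subtraction of free RNA was not analysed here.

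Entries were present almost everywhere, and it was their value that separated the clusters. The share of nuclei with an entry lay between 94.4% in sn16 and 99.9% in sn0. The share of written zeros among entries was 3.21% (1.67 to 5.54%) in sn5a, 5.26% (3.79 to 7.10%) in sn0 and 9.95% (6.18 to 14.9%) in sn17. It reached 47.1% in sn1, 57.5% in sn2, 77.6% in sn12 and 85.5% (81.0 to 89.3%) in sn13. In sn13, 297 of 307 nuclei thus had an *SCB1* entry and 43 had a UMI. Every cluster had *SCB1* UMIs, whereas *BAN* had 0 UMIs in sn0 and *SCS1* had 0 in sn13. In sn0, 46.9% of nuclei had a *BAN* entry, each written as 0. For the values after subtraction, 0 of 761 nuclei allows a share with a *BAN* UMI of up to 0.394% (3 counts of the total, for counting error only). With the depth of the nuclei, the share of written zeros increased from 33.4% in the shallowest 25% of nuclei to 50.9% in the deepest 25%.

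**Figure D4:**
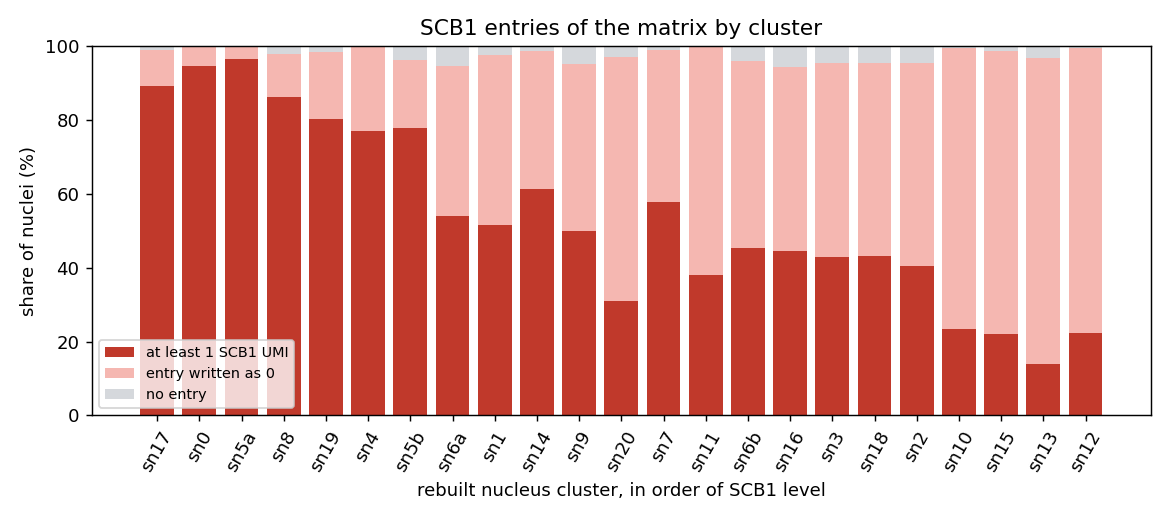
Share of nuclei (y axis, percent) with at least 1 SCB1 UMI, with an SCB1 entry written as 0 and with no entry, in the 23 clusters ordered by SCB1 level (x axis). The share with a UMI was 94.6% in sn0 and 14% in sn13, and entries of either kind covered at least 94.4% of the nuclei in every cluster.

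Chromatin gave a view of *SCB1* that does not rest on clustering by RNA. The 7319 nuclei with at least 1000 fragments in peaks formed 17 clusters on their fragments alone, numbered here by *SCB1* level. Chromatin cluster 1 (109 nuclei, 30.3% from sn4 and 26.6% from sn8) had 7247 CPM. Of its nuclei, 79.8% had fewer than 3000 fragments, and 1 nucleus held 999 of its 3535 *SCB1* UMIs. At 2000 UMIs per nucleus its level was 5404, against 4318 in cluster 2. Cluster 2, with 852 nuclei of which 92.7% lay in outer integument clusters and 62.4% in sn0, had 5360, and 92.5% of its nuclei had *SCB1* RNA. Cluster 3, with sn5a (43.2%) and sn5b (32.8%) as its main parts, had 4354. Cluster 4, a mixture led by sn7 (17.1%) and sn4 (15.7%), had 3474. Clusters 7, 11 and 15, mostly of embryo and endosperm nuclei and led by sn18 or sn2, had 1144, 1006 and 718. Clusters 9 and 10, with 86.9% and 92.5% of their nuclei from the outer integument, were similar to the first 2, at 1118 and 1027. The clusters made up of endosperm nuclei (13 and 14) had 823 and 735, and at 2000 UMIs per nucleus 533 and 543. Single nuclei held 444 of the 1609 UMIs in cluster 14 and 389 of the 1035 in cluster 7. The lowest (cluster 17) had 502. The highest level was 14.4 times the lowest (12.9 to 16.1). The 1317 nuclei left out for their few fragments had 3166 CPM of *SCB1*, against 2083 in the nuclei used, so the chromatin clusters missed part of the *SCB1*-rich nuclei, among them 50.9% of sn8.

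*SCB1* was then compared between nuclei with and without the RNA of each companion, all at 2000 UMIs and with the companion's own UMIs left out of the totals. Nuclei with *SCS1* RNA were rich in *SCB1*. The 1020 nuclei with *SCS1* had 5240 CPM of *SCB1* (5141 to 5340) and the 5209 without had 1370 (1347 to 1392), a ratio of 3.83 (3.73 to 3.92), and *SCB1* RNA was found in 89.0% (86.9 to 90.9%) and 42.3% (41.0 to 43.7%) of them. Conversely, 908 of the 3114 nuclei with *SCB1* (29.2%) had *SCS1*, so *SCB1* extended over many more nuclei.

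Within sn0 and sn5a the interval of the ratio for *SCS1* included 1, and in the other clusters compared *SCB1* was higher with *SCS1* RNA. In sn0, 535 nuclei with *SCS1* had 5432 CPM of *SCB1* and 120 without had 5400, a ratio of 1.01 (0.947 to 1.07). The ratio was 0.929 (0.855 to 1.01) in sn5a, where all 67 nuclei with *SCS1* and 227 of the 233 without had *SCB1* RNA. It was 1.34 (1.16 to 1.56) in sn19, 1.41 (1.26 to 1.59) in sn4, 1.6 (1.39 to 1.85) in sn8 and 1.68 (1.57 to 1.80) in sn17, 3.58 (2.81 to 4.56) in sn9, and 2.21 (2.14 to 2.29) over all outer integument clusters. *SCS1* itself was at 6203 CPM in sn0 but at 447 in sn5a, whereas *SCB1* was alike in both. The largest ratio of a region was in embryo and endosperm, 6.41 (5.70 to 7.20), where 77 nuclei had *SCS1* RNA.

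Nuclei with *TT8* RNA had less *SCB1*. The 1983 nuclei with RNA of either *TT8* gene had 1547 CPM (1509 to 1587) and the 4246 without had 2212 (2180 to 2244), a ratio of 0.700 (0.680 to 0.720). The difference was present within single clusters, with ratios of 0.721 (0.657 to 0.789) in sn0, 0.740 (0.649 to 0.840) in sn5a, 0.621 (0.575 to 0.671) in sn4, 0.691 (0.598 to 0.80) in sn7 and 0.834 (0.779 to 0.892) in sn17. It was the other way in sn6a, at 1.36 (1.12 to 1.65), sn10, at 1.52 (1.03 to 2.18), and sn15, at 1.74 (1.17 to 2.53). Over the embryo and endosperm clusters together the ratio was also above 1, at 1.25 (1.08 to 1.44). In sn2, sn9, sn11 and sn16 the interval included 1. Most epidermal nuclei had *TT8* RNA, and in that region the 991 nuclei with it had 670 CPM of *SCB1* and the 99 without had 1525.

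**Figure D5:**
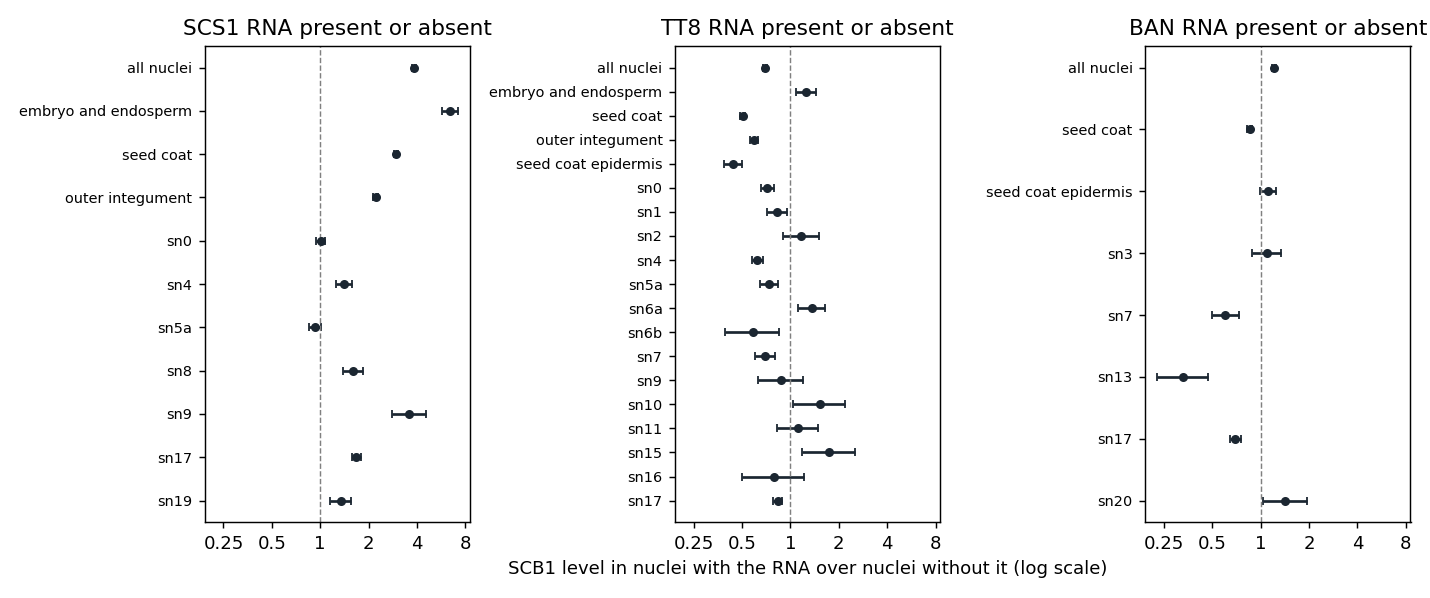
Ratio of the SCB1 level in nuclei with SCS1, TT8 or BAN RNA to that in nuclei without it (x axis, log scale), over all nuclei, within regions of at least 50 nuclei of each kind and within clusters of at least 30 (y axis); bars are exact 95% intervals of the ratio and the dashed line marks equal levels. For SCS1 the ratio was 3.83 over all nuclei and 1.01 within sn0.

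For *BAN* the sign depended on which nuclei were counted. Over all nuclei the 1446 with *BAN* RNA had 2313 CPM of *SCB1* (2258 to 2370) and the 4783 without had 1907 (1879 to 1935), a ratio of 1.21 (1.18 to 1.25), while the shares with *SCB1* RNA were nearly equal, at 51% and 49.7%. Among seed coat nuclei the ratio was 0.854 (0.829 to 0.879), and without sn4, sn7, sn8 and sn17 it was 0.330 (0.304 to 0.357). Without thinning, the ratio over all nuclei was 0.968 (0.954 to 0.982). Both RNAs were abundant in sn17, with 3150 CPM of *BAN*, and in sn4, with 4818. In sn17 the 128 nuclei with *BAN* had 9842 CPM of *SCB1* and the 35 without had 14114, a ratio of 0.697 (0.648 to 0.751). The ratio was also below 1 in sn7, at 0.600 (0.496 to 0.731), and sn13, at 0.330 (0.228 to 0.473). It was the other way in sn20, at 1.42 (1.03 to 1.96). In sn3, at 1.09 (0.888 to 1.35), and over the epidermal clusters, at 1.11 (0.997 to 1.25), the interval included 1. No ratio is given for sn4, where 96.4% of the nuclei had *BAN* RNA and fewer than 30 were without it.

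By combination of companions, the 62 nuclei with *SCS1* and *BAN* but no *TT8* RNA had the most *SCB1*, at 8427 CPM (7924 to 8954), and the 798 nuclei with *TT8* alone the least, at 966 (919 to 1016). The 3103 nuclei with none of the companions had 1295 (1267 to 1324), and 41.6% of them had *SCB1* RNA, which was 1291 of the 3114 nuclei with *SCB1*.

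In sn17, sn4 and sn7, *SCB1*-high nuclei had fewer ATAC fragments than *SCB1*-none nuclei. In sn17, the 121 *SCB1*-high nuclei had a median of 2113 fragments and the 22 *SCB1*-none nuclei 8748. The medians were 1987 and 6740 in sn4 and 2450 and 9973 in sn7. In sn0 they were 11322 and 12689. The part of nucleus quality in the levels of sn17, sn4 and sn7 was not tested.

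Genes with a distribution like that of *SCB1* were sought by the correlation of log2(CPM + 1) over the 23 clusters, among 11589 genes found in at least 25% of the nuclei of some cluster. The clusters share library and free RNA, and they were built from these genes, so the correlations are descriptive. A correlation of 0.8 or more was reached by 73 genes (0.63%), and the median was -0.19. Most like *SCB1* was Glyma.10G257000, a glycosyl hydrolase family 10 gene, at r = 0.97. Glycosyl hydrolases of this family act on xylan of the wall. Its level was 1888 CPM in sn17, 1784 in sn5a and 1098 in sn0 but 18.7 in sn12. The serine carboxypeptidase gene *scpl40* (Glyma.09G226700) followed at 0.96, with its highest level, 3016 CPM, in sn5a.

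The remaining genes of the 10 most alike were a glutamine amidotransferase-like gene (Glyma.13G271200, 0.95), an aspartyl protease gene (Glyma.02G213000, 0.93), the α-L-arabinofuranosidase gene *ASD1* (Glyma.19G124600, 0.93), a further glycosyl hydrolase gene (Glyma.02G272100, 0.91), Glyma.17G212100 (0.89), the cytochrome P450 gene *CYP71B7* (Glyma.08G327100, 0.89), a MATE efflux gene named *FRD3* (Glyma.09G102800, 0.88) and a basic helix-loop-helix gene (Glyma.19G021400, 0.88). *ASD1*, whose product removes arabinose from wall polysaccharides, was highest in sn0, at 4641 CPM against 1737 in sn17. The genes least like it, from -0.90 to -0.86, were Glyma.08G188100, Glyma.20G121300, Glyma.20G060900, Glyma.20G198400 and Glyma.04G193600, which carry no name in the study's tables. Glyma.08G188100 was at 78.5 CPM in sn10 and at 2.55 in sn17. *SCS1* had a correlation of 0.65, the *TT8* genes -0.21 and -0.13, and *BAN* -0.06.

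Lists taken from the study's tables differed in this respect. At 0.8 or more stood 13 of 55 outer integument genes (median 0.67), 5 of 20 protease genes (median 0.69), 4 of 31 cell wall genes (0.55), 1 of 25 flavonoid genes (-0.04) and 0 of 10 sugar and starch genes (0.54). The share over all genes compared was 0.63%. Some genes are shared between lists, here and below, such as *BGAL8* (Glyma.12G173700) between the outer integument and cell wall lists. None of the 8 embryo, 8 endosperm, 15 epidermal and 11 vascular genes did, and their medians were -0.18, -0.30, -0.24 and 0.11. The 4 inner integument and 3 endothelium genes likewise contributed none of the 73, with 2 compared in each list.

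Within the outer integument clusters, 1240 nuclei were *SCB1*-high and 626 *SCB1*-none. Clusters sn0 and sn5a gave 43.3% and 21.5% of the *SCB1*-high nuclei, while sn1 gave 316 of the *SCB1*-none nuclei, so the comparison also separates clusters. Of the 5375 genes found in at least 10% of the nuclei of either kind, 282 (5.25%) were at least 2 times higher in *SCB1*-high nuclei and 271 (5.04%) at least 2 times lower, and the median ratio was 0.959.

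Several of the largest differences were in genes annotated as glycosyl hydrolases or proteases. Glyma.10G257000 was at 853 CPM in *SCB1*-high and 57.5 in *SCB1*-none nuclei, a ratio of 14.8 (11.7 to 19). The asparagine synthetase gene *ASN1* (Glyma.18G061100), which serves nitrogen transfer, was at 420 and 30.4, a ratio of 13.8 (10.0 to 19.7). The aspartyl protease gene Glyma.02G213000 (11.1) and the serine carboxypeptidase gene *SCPL45* (Glyma.03G125400, 10.2) followed, and so did *ASD1*, at 2705 against 301 CPM (8.98). Further genes of the first 10 were the aquaporin-like *NIP1;2* (Glyma.08G120100, 9.59), a second family 10 hydrolase (Glyma.20G134200, 8.82), the sugar transporter gene *SWEET5* (Glyma.19G009900, 8.63), and Glyma.03G050700 (11.4) and Glyma.08G159500 (10.5), which have no name. Lowest were the glutathione S-transferase gene *GSTF9* (Glyma.14G031000), at 16.5 against 128 CPM (ratio 0.129), Glyma.01G238800 (0.130), Glyma.18G143700 (0.143), *BZIP61* (Glyma.06G284900, 0.146) and the β-glucosidase gene *BGLU46* (Glyma.07G258700, 0.147).

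Within single clusters the ratios of these 10 highest genes were above 1 for 10 of 10 in both sn0 and sn1, the largest clusters compared, and they were smaller than over the region for 9 of 10 in sn0 and 10 of 10 in sn1. The genes were chosen by their ratio over nuclei that include those of sn0 and sn1, so these counts are not independent evidence. Of all genes compared within the cluster, 498 of 6634 were at least 2 times higher in sn0 and 218 of 5620 in sn1. These counts use a stricter bound than a ratio above 1. The share of all genes with a ratio above 1 was not counted, so how far 10 of 10 exceeds it is not known. In sn0 (537 *SCB1*-high and 49 *SCB1*-none nuclei) the ratios were 4.63 for Glyma.10G257000, 5.2 for *ASN1* and 2.18 for *ASD1*, and in sn1 (173 and 316 nuclei) 13.1, 6.85 and 6.06. In sn6b (39 and 93 nuclei) *ASN1* had a ratio of 1.19, from 2 and 4 UMIs, and *SWEET5* had 0 UMIs in the *SCB1*-high and 2 in the *SCB1*-none nuclei. The 5 lowest genes had ratios of 0.295 to 0.466 in sn1. In sn0 none of them had more than 12 UMIs in the *SCB1*-high or 2 in the *SCB1*-none nuclei, and they were not compared there. *SCS1* had a ratio of 6.38 (5.85 to 6.98) over the region and 1.19 in sn0, and in sn1 it had 37 UMIs in the *SCB1*-high and 2 in the *SCB1*-none nuclei. The summed outer integument genes stood at 17390 and 10459 CPM in the *SCB1*-high and *SCB1*-none nuclei of sn1, and 10.4% and 5.70% of these nuclei had high doublet scores.

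Lists followed the same lines. At least 2 times higher in *SCB1*-high nuclei of the outer integument were 42 of the 53 outer integument genes compared (median ratio 3.45), 12 of 17 protease genes (3.75), 12 of 24 cell wall genes (2.08), 6 of 10 sugar and starch genes (2.36) and 2 of 3 flavonoid genes (2.69), against 5.25% of all genes compared. The lists were compiled from the study's tables of these same nuclei, so these shares also hold that selection and are not independent evidence. Only 3 of the 25 flavonoid genes were frequent enough to compare, and the sum over all 25 was 735 CPM in *SCB1*-high and 780 in *SCB1*-none nuclei. Of the most abundant flavonoid genes of the library, *F3H* (Glyma.02G048400), was at 27.4 and 56.7 CPM, *BAN* at 8.06 and 33.5 and *TT7* (Glyma.06G202300) at 57.3 and 58.3. *BGLU44* (Glyma.09G178100) was at 4883 and 2327 CPM, the β-galactosidase genes *BGAL8* (Glyma.12G173700) at 4012 and 1116 and *BGAL1* (Glyma.13G104000) at 1091 and 279, and the sucrose synthase genes *SUS4* (Glyma.15G182600 and Glyma.09G073600) at 1754 and 872 and at 537 and 198. A second *BGAL8* gene (Glyma.13G327000) had 581 and 302, and *ATISA3* (Glyma.06G100600), a debranching enzyme of starch metabolism, 631 and 542. Of the proteases, *scpl40* was at 1464 and 215 and Glyma.04G091800 at 437 and 67.9.

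Vascular genes went the other way, with 9 of 11 at least 2 times lower (median ratio 0.306) against 5.04% of all genes, and a sum of 918 against 2942 CPM. The *bZIP9* genes were at 231 and 624 CPM (Glyma.06G079800), 115 and 423 (Glyma.04G078300) and 113 and 427 (Glyma.14G139700). The vascular clusters sn6a and sn6b gave 65 and 39 *SCB1*-high nuclei and 106 and 93 *SCB1*-none nuclei. Within single clusters the ratio lay on both sides of 1, but no intervals were computed for these sums. The ratio of the vascular sums was 1.10 in sn0, 1.11 in sn6b and 1.45 in sn5b, but 0.704 in sn6a, 0.662 in sn1 and 0.546 in sn19. The *SCB1*-none nuclei were few in sn0 (49), sn5b (20) and sn19 (36), so whether the direction truly differs between clusters is not known. Over the region, 2 of the 17 protease genes, 1 of the 24 cell wall genes and the 1 epidermal gene compared were also at least 2 times lower. The 1 embryo gene compared, *GAMMA-TIP* (Glyma.03G185900), a tonoplast aquaporin, had a ratio of 0.700, and the 1 inner integument gene compared, *FAS4* (Glyma.01G142700), 0.942. No endosperm or endothelium gene was frequent enough.

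Over all nuclei, with 2171 *SCB1*-high and 3115 *SCB1*-none, 327 of 5326 genes (6.14%) were at least 2 times higher and 213 (4%) at least 2 times lower. The 2 groups differ in tissue. Embryo and endosperm clusters gave 199 of the *SCB1*-high and 1342 of the *SCB1*-none nuclei, and epidermal clusters 217 and 728, so the comparison also separates regions. The 7 epidermal genes compared were all at least 2 times lower, as were the 3 endosperm genes and 7 of 24 flavonoid genes, while 2 flavonoid genes were at least 2 times higher. The most abundant epidermal genes were Glyma.05G196200, at 52.3 and 189 CPM, *CER1* (Glyma.03G101700), of wax synthesis, at 51.4 and 154, and Glyma.08G270600, at 35.5 and 140. For the endosperm list the values were 144 and 379 (Glyma.17G083600), 126 and 252 (Glyma.02G281500) and 63.1 and 320 (Glyma.09G025800), and for the embryo list 134 and 139 (*GAMMA-TIP*), 46.5 and 124 (Glyma.04G124100) and 28.3 and 77.8 (Glyma.04G139800). Of the 2 embryo genes compared, 1 was at least 2 times lower. The flavonoid genes *F3H* (Glyma.02G048400), at 807 and 810, and *TT7* (Glyma.06G202300), at 554 and 843, encode enzymes upstream of *BAN*, which was at 715 and 646.

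The other BURP genes annotated in the tables used contributed little RNA. Of these 3 genes including *SCB1*, Glyma.04G182300 (best Arabidopsis match *PG3*) had 291 UMIs in 238 nuclei, 7.30 CPM (6.48 to 8.18), and Glyma.08G230600 (best match *RD22*) had 8 UMIs in 8 nuclei, so *SCB1* carried nearly all RNA of these 3. BURP genes without such an annotation were not looked for. Glyma.04G182300 was not distributed like *SCB1* (r = 0.09). It was highest in sn6b, at 35.3 CPM (24.3 to 49.6), and sn6a, at 30.3 (21 to 42.3), where *SCB1* was at 834 and 1274 CPM. In sn17, where *SCB1* was highest, Glyma.04G182300 reached 11 (5.88 to 18.9).

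In the ATAC library, peaks were compared between all *SCB1*-high and *SCB1*-none nuclei as fragments per 1000000 fragments in peaks. Of 90609 peaks with at least 100 fragments in both groups together, 1631 (1.8%) were at least 2 times more open in *SCB1*-high nuclei and 1825 (2.01%) at least 2 times less open, with a median ratio of 0.953. Positions refer to assembly Gmax_275_Wm82.a2.v1. The largest ratios were 6.90 (4.65 to 10.5) on chromosome 14 at 27452002 to 27452619, 6.88 (4.97 to 9.70) on chromosome 20 at 34122772 to 34123593 and 6.37 (3.93 to 10.7) on chromosome 5 at 9506527 to 9507015. They rest on 155, 227 and 100 fragments. No gene coordinates of this assembly were used, so no peak was tied to *SCB1*. On chromosome 7, which carries *SCB1*, 89 of 4591 peaks were at least 2 times more open, a share close to the 1.8% of all peaks. The highest ratio of this chromosome, 3.71 (2.59 to 5.37), was at 33132737 to 33133278. A neighbouring peak at 33131004 to 33131813 had 3.51 (2.76 to 4.48), the fifth highest of chromosome 7. These peaks were chosen after their values were seen.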

How the data were processed

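Nuclei of cotyledon-stage seeds, pooled per the study, gave 1 RNA and 1 ATAC library by the 10x Multiome assay. Per the labels and the study's methods, the authors used bcl2fastq 2.20.0.422 and Cell Ranger ARC 1.0 on assembly Gmax_275_Wm82.a2.v1, subtracted free RNA with SoupX and deposited the UMI counts as whole numbers for each gene in each nucleus. These counts are values after subtraction, which lowers RNAs that are abundant outside nuclei and depends on the clusters given to it. The deposited ATAC files list fragments with the count of read pairs behind each, which was not used, and peaks called on the 1 library. The RNA library held 39881831 UMIs in 8636 nuclei. The ATAC library held 125691389 fragments, 113501985 of them in these nuclei (median 7840 per nucleus), and 119743 peaks.

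Nuclei were clustered again with Seurat 5.3.0 and sctransform 0.4.2 in R 4.3.3 (30 principal components, resolution 1, clusters 5 and 6 divided at 0.15 and 0.1). Clusters took the number of the study's cluster averages they matched best (the second best match was at most 0.80). These averages served only for the match. Chromatin clusters came from latent semantic indexing of 119488 peaks and leidenalg 0.10.2. Scrublet (scanpy 1.11.5) marked no doublets, so it did not work as a caller, no nucleus was removed, and the 518 nuclei (6%) with the highest scores were left out as an alternative. CPM are UMIs summed over nuclei per 1000000 summed UMIs. Nuclei under 2000 UMIs (2407) were left out of thinned comparisons. With 1 library of each kind there is no test, and genes and peaks were counted by size, at 2-fold. UMI counts of nuclei do not show how much RNA each cell held in its cytoplasm. Scripts were tested on simulated data.

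The gene, the lists and the comparisons were chosen with earlier results of these data known. Text names *SCB1*, its companions, BURP genes with at least 50 UMIs (and the 1 below), the 10 highest and 5 lowest correlations and ratios, the 3 members with most UMIs in lists, and 3 peaks. Some low members of short lists are given in counts only. Comparison columns in the study's tables were not used as values. No sequences are shown.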

Additional observations from a re-analysis of the deposited data

How the results depend on the processing

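The limits are those of 1 library, of a subtraction of free RNA whose input was not analysed here, and of pooled levels that weight deep nuclei. Under the alternatives run, the ratio of seed coat to embryo and endosperm and the ratios for *SCS1* and *TT8* kept their direction, and that for *BAN* did not. Within embryo and endosperm, which was not among these alternatives, the ratio for *TT8* was 1.25. No paired analysis was possible because each kind of library was made once.

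The library level of *SCB1* was 2219 CPM without the highest doublet scores, 2035 in nuclei with at least 3000 ATAC fragments and 2033 as a mean over nuclei. The share of nuclei was 37.0% at 500 UMIs, 45.7% at 1000, 56.5% without thinning, 97.6% with written zeros counted as present and 47.7% in nuclei with 3000 fragments. The ratio of seed coat to embryo and endosperm was 8.37 without the highest doublet scores and 4.93 with 3000 fragments. It stayed within its interval under the other clusterings, including the one built without *SCB1*. At resolution 0.5, no cluster matched sn17 or sn5a. The chromatin ratio was 11.4 with 3000 fragments in peaks, 9.84 at resolution 0.5, 16.8 at 1.5 and 16.3 without the highest doublet scores.

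For *SCS1* the ratio was 3.30 at 500 UMIs, 3.52 at 1000, 4.33 without thinning, 4.02 with presence at 2 UMIs, 3.98 without the highest doublet scores, 3.93 with 3000 fragments and 2.21 within the outer integument. For *TT8* it was 0.588 at 500, 0.655 at 1000, 0.729 with another seed, 0.513 at 2 UMIs, 0.651 with 3000 fragments and 0.592 within the outer integument. For *BAN* it was 1.25 at 1000 and 1.18 with another seed, and fell below 1 without thinning (0.968), with 3000 fragments (0.856) and within the outer integument (0.336). An alternative chosen after seeing the data, without sn4, sn7, sn8 and sn17, gave 4.2 for *SCS1*, 0.478 for *TT8* and 0.330 for *BAN*, and 119 genes at a correlation of 0.8.

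Written zeros of *SCB1* were 46.5% with 3000 fragments. Genes higher in *SCB1*-high nuclei numbered 169 at 1000 UMIs and 95 at 25% of nuclei. Fewer genes were compared there, and in both cases the share that was higher exceeded the 5.25% of the main setting. Peaks more open in *SCB1*-high nuclei numbered 945 at 200 fragments and 582 within the outer integument. Fewer peaks were compared there, and in both cases the share was below the 1.8% of the main setting. The cause of these shifts and of the others was not tested.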
